A study of Mus musculus with 16 samples.

Results

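The genes described here are 42 interferon-stimulated genes, chosen by symbol from the 24421 genes of the count table. All 42 were in the table and all passed the filter on low counts, among 13554 genes tested. Of these, 30 were antiviral, sensor and signalling genes in 7 families. They were the IFIT genes (Ifit1, Ifit2, Ifit3), the OAS and OASL genes (Oas1a, Oas2, Oas3, Oasl1, Oasl2), the ISG15 conjugation system (Isg15, Usp18, Herc6), the RNA helicase sensors (Ifih1, Ddx58, Dhx58) and the PARP and DTX3L group (Parp9, Parp14, Dtx3l). Other antiviral effectors (Isg20, Mx1, Rsad2, Cmpk2, Bst2, Eif2ak2, Zbp1, Samd9l) and signalling or less defined genes (Ifi35, Ifi44, Rtp4, Xaf1, Trim30a) completed the 30. The remaining 12 were 4 immunity-related GTPases (IRG: Igtp, Irgm1, Irgm2, Iigp1), 4 guanylate-binding proteins (GBP: Gbp2, Gbp3, Gbp4, Gbp7) and 4 Schlafen genes (Slfn1, Slfn2, Slfn5, Slfn8). The cells came from lymph nodes of C57BL/6 mice, an inbred strain, with no genetic modification named (age and sex: not given in the sources used here). They were sorted as naive T cells (negative for CD25, high in CD62L, low in CD44) that carried either CD4 or CD8. Within each lineage 2 fractions were collected, the third of cells with most surface CD5 (CD5hi) and the third with least (CD5lo), without any stimulation or treatment that the labels name. This gave 4 groups of 4 biological replicates, 16 libraries of RNA-seq gene counts. The study's design also mentions 2 technical replicates of every sample; with a single column of counts each, technical runs could not be compared. CD5 is a surface receptor of T cells that restrains antigen receptor signalling, and the study asked how it relates to the resting state of NF-kB signalling.

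Interferon-stimulated genes are switched on by interferons, and 2 types of these are described here. Type I interferons bind the IFNAR receptor and activate transcription factors that bind the interferon-stimulated response element (ISRE) in promoters. Type II interferon (interferon gamma) binds the IFNGR receptor and acts on promoters through the gamma-activated site (GAS) and also through the transcription factor IRF1. The IFIT, OAS, helicase and Mx genes are known mainly as antiviral genes of the type I response. The IRG and GBP genes encode GTPases that are strongly induced by interferon gamma and that attack the compartments in which intracellular pathogens live. Resting T cells express many of these genes at a basal level without infection.

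The libraries held 71447252 to 93418385 counts each (median 78528233), so that 1 count corresponded to 0.0108 to 0.0139 CPM. Levels below are CPM, counts scaled to a common library size after TMM normalisation. Cd5 itself followed the sort, with 237 to 276 CPM at low and 1349 to 1427 at high CD5 in CD4 cells, and 187 to 216 against 469 to 552 in CD8 cells. Naive T cell markers were high throughout, with the 7 of 8 listed markers in the table summing to 4161 to 4596 CPM. In 3 libraries B cell markers were raised: the 15 of 18 listed markers in the table summed to 391 CPM in CD4 CD5lo replicate 3, 616 CPM in CD8 CD5lo replicate 3 and 999.8 CPM in CD8 CD5hi replicate 4, against 11.4 to 73.3 CPM in the other 13 (3 of the 15 markers were at 0 in CD4 CD5hi replicate 1, and none in the rest). These 3 libraries also held more RNA of the other lineage (Cd4 at 27.2 and 62.2 CPM in the 2 CD8 libraries, against 0.42 to 2.51 in the other CD8 libraries; Cd8a at 11.4 CPM in the CD4 library, against 0.69 to 5.49 in the other CD4 libraries). Each count of called members is therefore given with and without them. The labels do not say that the replicates came from separate animals, so p-values measure the spread between these samples.

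Among the 42 members, the most abundant in the resting cells were Schlafens and an IRG gene. Per kilobase of exon and averaged over the 16 libraries, Slfn2 stood at 173 CPM, Slfn1 at 127 and Igtp at 90.4. Bst2 (tetherin, which holds budding virions at the cell surface) followed at 59.8 CPM per kilobase, and Isg15 (a ubiquitin-like protein joined to other proteins) was at 26.8. The lowest were Rsad2 (viperin) at 2.49 and Ifi44 at 0.211 CPM per kilobase.

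By surface CD5, the GTPase genes were the members that changed in CD4 cells. All 4 IRG genes and 2 of 4 GBP genes fell in CD5hi cells, none of the 42 genes rose, and none of the 30 members outside the IRG, GBP and Schlafen families passed the test. This is 0 of 42 members higher, where 2.68% of all tested genes were called higher, and 6 of 42 lower, where 1.40% of all tested genes were called lower (edgeR quasi-likelihood test, Benjamini-Hochberg adjusted p below 0.05). The median log2 change was -0.49 for the IRG genes, -0.34 for the GBP genes, -0.04 over all members and -0.01 over all tested genes.

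Promoter sequences of 5 of the GTPase genes are printed because these genes all fell in CD5hi CD4 cells, with that of Ifit3, an antiviral gene that was not called by CD5, for comparison. Each is 300 bases, from 250 before to 50 after the start of the transcript, on the strand of the gene, from the RefSeq table of GRCm38.p6. Capitals mark matches to the ISRE letters GAAANNGAAA or their reverse complement TTTCNNTTTC. The windows lie at chr11:58199306-58199605 (Igtp, plus strand), chr11:58214727-58215026 (Irgm2, plus strand), chr11:48871371-48871670 (Irgm1, minus strand), chr3:142620413-142620712 (Gbp2, plus strand), chr3:142559794-142560093 (Gbp3, plus strand) and chr19:34583279-34583578 (Ifit3, plus strand). Gbp3 has a second window in the table, at chr3:142560106-142560405, which holds 0 matches to the ISRE letters and is not printed.
Igtp: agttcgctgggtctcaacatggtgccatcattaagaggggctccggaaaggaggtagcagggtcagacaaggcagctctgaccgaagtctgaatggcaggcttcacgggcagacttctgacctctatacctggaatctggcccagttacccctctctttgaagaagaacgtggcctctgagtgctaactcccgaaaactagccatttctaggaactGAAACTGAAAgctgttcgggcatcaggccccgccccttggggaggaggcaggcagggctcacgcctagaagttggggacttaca
Irgm2: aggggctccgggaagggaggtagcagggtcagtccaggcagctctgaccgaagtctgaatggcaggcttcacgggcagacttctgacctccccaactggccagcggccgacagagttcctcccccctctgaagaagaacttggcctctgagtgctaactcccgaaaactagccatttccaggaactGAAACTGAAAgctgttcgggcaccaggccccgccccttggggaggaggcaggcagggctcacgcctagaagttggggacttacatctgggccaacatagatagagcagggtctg
Irgm1: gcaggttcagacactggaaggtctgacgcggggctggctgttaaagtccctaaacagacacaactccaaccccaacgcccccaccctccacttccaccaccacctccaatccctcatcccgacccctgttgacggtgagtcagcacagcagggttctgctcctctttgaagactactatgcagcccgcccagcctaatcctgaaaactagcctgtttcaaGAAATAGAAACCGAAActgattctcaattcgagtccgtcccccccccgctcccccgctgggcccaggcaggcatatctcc
Gbp2: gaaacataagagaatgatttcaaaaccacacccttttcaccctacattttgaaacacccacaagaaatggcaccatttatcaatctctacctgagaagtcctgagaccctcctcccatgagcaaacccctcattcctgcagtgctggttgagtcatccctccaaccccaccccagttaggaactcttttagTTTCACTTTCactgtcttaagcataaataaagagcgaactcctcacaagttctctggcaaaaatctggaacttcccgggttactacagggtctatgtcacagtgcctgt
Gbp3: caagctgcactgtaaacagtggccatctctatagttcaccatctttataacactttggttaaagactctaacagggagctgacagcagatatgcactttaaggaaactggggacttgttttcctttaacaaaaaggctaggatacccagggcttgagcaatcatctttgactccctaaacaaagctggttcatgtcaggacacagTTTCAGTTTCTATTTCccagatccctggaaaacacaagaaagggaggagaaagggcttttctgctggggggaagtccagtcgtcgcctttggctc
Ifit3: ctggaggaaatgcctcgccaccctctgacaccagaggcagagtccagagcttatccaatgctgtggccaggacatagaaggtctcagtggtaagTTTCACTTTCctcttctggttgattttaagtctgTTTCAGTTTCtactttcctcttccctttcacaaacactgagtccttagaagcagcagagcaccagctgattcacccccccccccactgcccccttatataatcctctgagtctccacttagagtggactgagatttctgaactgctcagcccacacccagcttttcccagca

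The ISRE letters occurred at least once in 3 of the 3 IRG windows and 3 of the 4 GBP windows that the table holds, and in 3 of 5 Schlafen windows. Of the 42 members, 32 had a window (38 windows in all), and 21 of the 38 (55.26%) held the letters, in 19 genes, against 1131 of all 32851 windows of the same length (3.44%). The letters were thus present both in promoters of genes that fell with CD5 and in that of Ifit3, which has 2 matches. They were not in all promoters of genes that fell. Of the Schlafens called lower in CD5hi CD8 cells, the Slfn5 window held 1 match and the Slfn2 window 0. GAS letters (TTCNNNGAA, the same on both strands) were found in 9 of 38 member windows (23.68%), in the windows of Igtp and Irgm2 among others, and in 8.30% of all windows. The Igtp and Irgm2 windows share an identical run of 61 bases. A match is a description of the letters and not of factor binding.

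Igtp (also known as Irgm3) encodes an IRG protein that regulates the other GTPases on intracellular membranes and lies at chr11:58199556-58207591, plus strand (GENCODE annotation of GRCm38). In CD4 cells its level was 209, 220.5, 198 and 215 CPM in the CD5lo libraries, numbered 1 to 4, and 148, 158, 149.9 and 146 CPM in the CD5hi libraries. All 4 CD5lo values lay above all 4 CD5hi values. Igtp fell by 0.48 ± 0.06 (SE) on the log2 scale, 1.40-fold (adjusted p = 1.01e-04; 4.58e-04 without the 3 libraries with raised B cell markers).

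Irgm2, at chr11:58199618-58222782, plus strand, encodes a second regulator of the IRG family. Its CD5lo values were 63.3, 53.5, 48.4 and 57.9 CPM and its CD5hi values 43.7, 37.1, 38.4 and 38.2 CPM. The groups did not overlap, and Irgm2 fell by 0.50 ± 0.12 (SE) on the log2 scale (1.42-fold, adjusted p = 0.0238; 0.0149 without the 3 libraries). The call was lost on leaving out CD4 CD5lo replicate 1 or 4 or CD4 CD5hi replicate 2, 3 or 4, with adjusted p up to 0.0885. Irgm2 and Igtp overlap on the same strand: 8.01% of the exonic bases of Igtp are also annotated to Irgm2, so reads in that stretch cannot be told apart.

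Irgm1, at chr11:48861968-48871683, minus strand, is the third regulator and is known for its part in resistance to mycobacteria and in autophagy. It was at 124, 119.7, 116 and 110.1 CPM in CD5lo and 93.6, 98.4, 98.5 and 86.4 CPM in CD5hi CD4 libraries. The groups again did not overlap. Irgm1 fell by 0.32 ± 0.08 (SE) on the log2 scale (1.25-fold, adjusted p = 0.0403), a call close to the threshold that was lost without the 3 libraries (adjusted p = 0.100) and in 13 of the 16 fits that left out 1 library, namely any CD4 library, any CD8 CD5lo library or CD8 CD5hi replicate 2 (highest adjusted p 0.147, when CD4 CD5hi replicate 4 was left out). With the replicate number as a block its adjusted p was 0.00921.

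Iigp1 (Irga6), an effector GTPase that coats and disrupts the vacuoles of parasites, had the largest log2 change of the 6. Its level was 45.1, 46.6, 33.0 and 37.0 CPM in CD5lo and 29.1, 21.6, 19.7 and 18.6 CPM in CD5hi CD4 libraries. All CD5lo libraries were above all CD5hi libraries. Iigp1 fell by 0.86 ± 0.20 (SE) (1.82-fold, adjusted p = 0.0216; 0.0258 without the 3 libraries), and it did not pass when CD4 CD5lo replicate 1 or 2 or CD4 CD5hi replicate 2, 3 or 4 was left out (adjusted p up to 0.0760).

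Gbp2, at chr3:142620602-142638008, plus strand, encodes a guanylate-binding protein recruited to pathogen vacuoles. The CD4 CD5lo libraries held 75.5, 72.9, 67.4 and 73.8 CPM and the CD5hi libraries 54.8, 55.2, 53.9 and 55.1 CPM. The CD5hi values were close together and all below the CD5lo values. Gbp2 fell by 0.40 ± 0.07 (SE) on the log2 scale (1.32-fold, adjusted p = 0.00315; 0.00690 without the 3 libraries).

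Gbp3, in the same gene cluster at chr3:142560026-142573209, plus strand, was less abundant, with 10.4, 10.6, 11.1 and 9.89 CPM in CD5lo and 6.92, 7.71, 8.79 and 6.31 CPM in CD5hi CD4 libraries. These groups did not overlap either. Gbp3 fell by 0.50 ± 0.10 (SE) (1.41-fold, adjusted p = 0.00900; 0.0373 without the 3 libraries). Gbp4 and Gbp7 did not pass. Gbp4 was at 349, 400.0, 298 and 308 CPM in CD5lo and 327, 286, 262 and 249.6 in CD5hi libraries (log2 change -0.27 ± 0.14 (SE), adjusted p = 0.471). Gbp7 was at 99.5, 99.0, 86.7 and 103 CPM in CD5lo and 93.5, 96.6, 86.4 and 76.2 CPM in CD5hi libraries (log2 change -0.14 ± 0.08 (SE), adjusted p = 0.582). Values of both genes overlapped between the groups. Of the 50-base windows, 12.8% in Gbp4 and 12.9% in Gbp7 occur identically in another gene. The share was similar for the called gene Igtp (12.3%), so the counts of Gbp4, Gbp7 and Igtp are less certain.

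**Figure D1:**
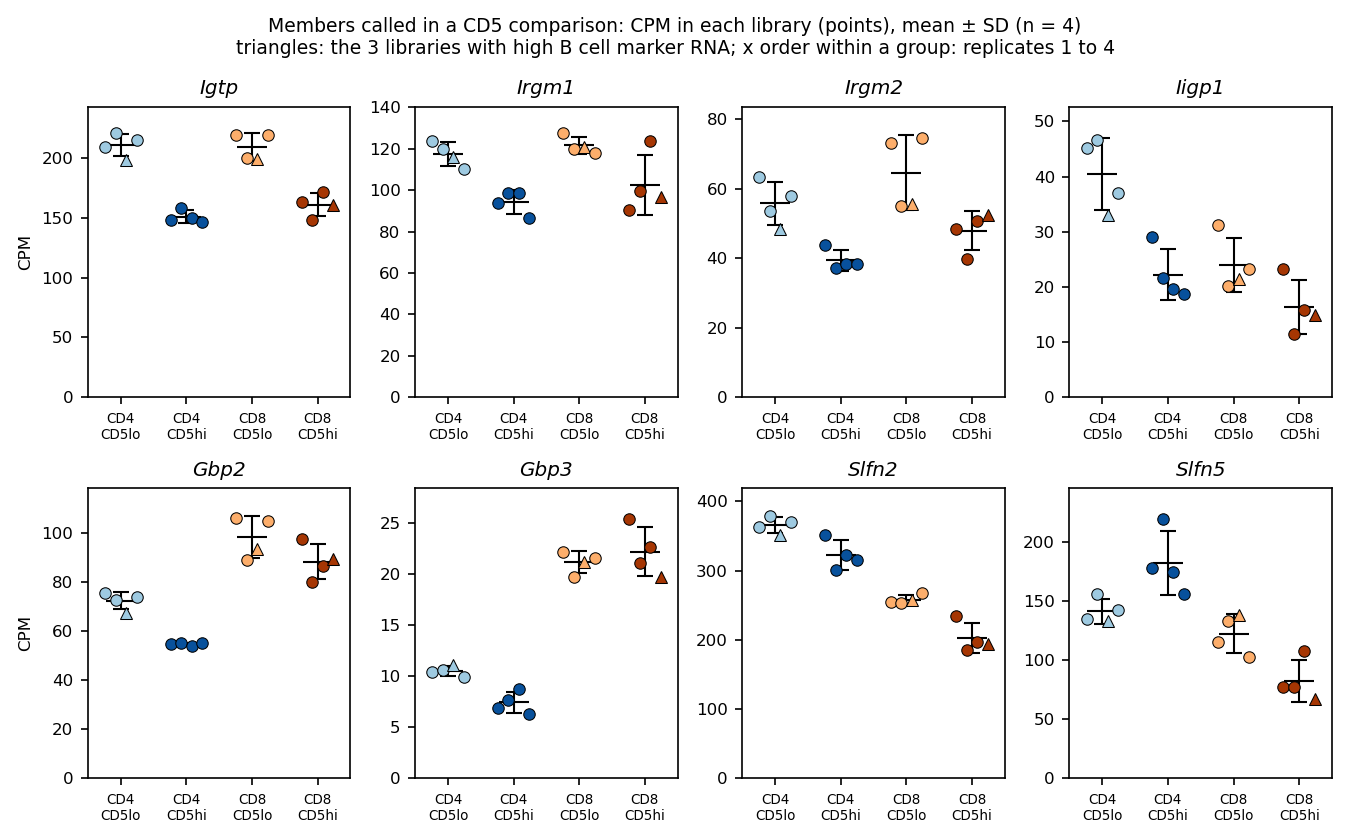
CPM per library (y axis, starting at 0) of the 8 interferon-stimulated genes called in a CD5 comparison, in the 4 sorted groups (x axis). Points are libraries, bars are the mean ± SD of 4 libraries, and triangles mark the 3 libraries with raised B cell markers. The triangles lie among or near the other points of their group. Igtp is lower in CD5hi than in CD5lo libraries in both lineages, without overlap.

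The 4 Schlafen genes did not pass in CD4 cells. Slfn2, which is needed to keep T cells quiescent, was at 363, 378, 351 and 371 CPM in CD5lo and 351, 301, 322 and 315 CPM in CD5hi CD4 libraries (log2 change -0.18 ± 0.07 (SE), adjusted p = 0.246), with 1 CD5hi value inside the CD5lo range. Slfn5 had 134, 156, 133 and 142 CPM in CD5lo and 178, 219, 174 and 156 CPM in CD5hi libraries (log2 change 0.36 ± 0.14 (SE), adjusted p = 0.228), with the highest CD5lo and the lowest CD5hi library at almost the same level. Slfn8 was at 121, 129, 115 and 141 CPM in CD5lo and 126, 131, 118 and 119 CPM in CD5hi libraries, with overlap. Slfn1 and Slfn8 had log2 changes of -0.10 and -0.03 (adjusted p = 0.914 and 0.984).

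None of the 30 antiviral, sensor and signalling genes was called in CD4 cells without the replicate block, and none had an unadjusted p below 0.05. Their log2 changes ran from -0.34 (Oas2) to 0.37 (Rsad2), 15 positive and 15 negative. Their SEs ran from 0.08 to 0.37 (median 0.19), wider than the 0.06 of Igtp. Without the replicate block, a change of the size seen in Igtp would thus not have been detectable for the more variable of them. Isg15 had a log2 change of 0.20 ± 0.25 (SE), Ifit3 of 0.11 ± 0.30 (SE), Usp18 (which removes ISG15 and restrains IFNAR signalling) of -0.04 ± 0.19 (SE), Bst2 of -0.15 ± 0.16 (SE) and Ddx58 (the RNA sensor RIG-I) of -0.10 ± 0.08 (SE), with adjusted p from 0.750 upwards. Ifi44 had 1.47, 1.58, 1.66 and 1.60 CPM in CD5lo and 2.22, 1.67, 2.22 and 1.95 in CD5hi libraries, without overlap and without a call (adjusted p = 0.757).

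Without the 3 libraries 0 members were higher (2.70% of all genes tested) and 5 lower in CD5hi CD4 cells (1.23%), the loss being Irgm1. In the fit with the replicate number as a block, 7 members were lower where 3.99% of all genes were. The addition was Oasl2, an OAS-like protein, with a log2 change of -0.34 ± 0.10 (SE) (adjusted p = 0.0397, against 0.880 without the block). Markers of activated or memory T cells (8 of 8 in the table) summed to 45.1 to 63.8 CPM in CD4 CD5lo and 79.0 to 100.5 CPM in CD4 CD5hi libraries. Regulatory T cell markers (6 of 6) summed to 90.7 to 118 and 152 to 171 CPM, and proliferation markers (8 of 8) to 78.3 to 84.1 and 103 to 118 CPM. Each of these sums was higher in every CD5hi than in every CD5lo library, opposite to the GTPases, and their part in the result was not tested. In sorted bulk cells, fewer cells of a type and less RNA per cell cannot be told apart.

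Without the replicate block, 4 of 42 members fell in CD5hi CD8 cells and none rose, where 3.51% and 5.95% of all tested genes did. Igtp and Irgm2 fell here too, joined by the Schlafens Slfn2 and Slfn5, while no GBP gene was called without the replicate block. The median log2 change was -0.41 for the IRG genes, -0.27 for the Schlafens, -0.16 for the GBP genes, -0.05 for all members and 0.00 for all tested genes. With the replicate block Oas2, Zbp1, Irgm1, Iigp1 and Gbp2 were also called lower, where 11.6% of all tested genes were.

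Igtp was at 219, 199.6, 199 and 219 CPM in CD8 CD5lo and 163, 148, 171 and 161 CPM in CD8 CD5hi libraries. The groups did not overlap, as in CD4 cells. Igtp fell by 0.38 ± 0.06 (SE) on the log2 scale (1.30-fold, adjusted p = 8.52e-04; 0.00413 without the 3 libraries). Its group means were nearly equal between lineages: 211 ± 9.50 (SD, n = 4) CPM in CD4 and 209 ± 11.5 CPM in CD8 CD5lo cells.

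Irgm2 stood at 73.3, 55.1, 55.6 and 74.6 CPM in CD5lo and 48.5, 39.9, 50.9 and 52.5 CPM in CD5hi CD8 libraries. No CD5hi library reached the lowest CD5lo library. Irgm2 fell by 0.43 ± 0.12 (SE) (1.35-fold, adjusted p = 0.0319; 0.0168 without the 3 libraries). The call was lost without CD4 CD5hi replicate 3, CD8 CD5lo replicate 1 or 4, or CD8 CD5hi replicate 1, 2 or 3 (adjusted p up to 0.139).

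Irgm1 was at 128, 119.8, 121 and 118 CPM in CD5lo and 90.4, 99.6, 124 and 96.7 CPM in CD5hi CD8 libraries, where replicate 3 of CD5hi stood inside the CD5lo range (log2 change -0.25 ± 0.08 (SE), adjusted p = 0.0792; 0.00725 without that library). Iigp1 was at 31.2, 20.2, 21.5 and 23.2 CPM in CD5lo and 23.3, 11.5, 15.9 and 15.0 CPM in CD5hi libraries, with replicate 1 of CD5hi inside the CD5lo range (log2 change -0.55 ± 0.20 (SE), adjusted p = 0.107; 0.0213 without that library). Without the replicate block neither was called with all 16 libraries, and each passed when that single CD8 CD5hi library was left out. With the block and all 16 libraries, both were called lower.

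Slfn2, at chr11:83065112-83070678, plus strand, had 254, 253, 257 and 267 CPM in CD5lo and 235, 186, 197 and 194 CPM in CD5hi CD8 libraries. All CD5hi values were below all CD5lo values. Slfn2 fell by 0.34 ± 0.07 (SE) (1.27-fold, adjusted p = 0.00524; 0.0402 without the 3 libraries).

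Slfn5, at chr11:82951349-82964840, plus strand, was at 115, 133, 138 and 102 CPM in CD5lo and 77.5, 76.9, 108 and 66.9 CPM in CD5hi CD8 libraries. CD5hi replicate 3 lay above the lowest CD5lo library, so the groups overlapped. Slfn5 fell by 0.57 ± 0.14 (SE) (1.48-fold, adjusted p = 0.0154), and the call was lost without the 3 libraries (log2 change -0.40, adjusted p = 0.106), without CD8 CD5lo replicate 2 and without CD8 CD5hi replicate 2 (adjusted p up to 0.0591). Slfn8 had 138, 144, 145 and 150.1 CPM in CD5lo and 119.9, 122, 149 and 123 in CD5hi libraries, with replicate 3 of CD5hi again the highest of its group (log2 change -0.17 ± 0.08 (SE), adjusted p = 0.220). Slfn1 had a log2 change of -0.20 ± 0.12 (SE) (adjusted p = 0.380).

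None of the GBP genes was called in CD8 cells without the replicate block. Gbp2 was at 106, 88.9, 93.6 and 105 CPM in CD5lo and 97.5, 80.0, 86.6 and 89.6 CPM in CD5hi libraries (log2 change -0.16 ± 0.07 (SE), adjusted p = 0.214). Gbp3 was at 22.2, 19.7, 21.2 and 21.6 CPM in CD5lo and 25.4, 21.1, 22.6 and 19.8 CPM in CD5hi libraries (log2 change 0.07 ± 0.10 (SE), adjusted p = 0.747). For each of these genes the groups overlapped. Gbp4 was at 441, 355, 338 and 341 CPM in CD5lo and 415, 276, 316 and 274 CPM in CD5hi libraries. Gbp7 was at 124, 114, 112 and 116 CPM in CD5lo and 108, 97.8, 113 and 95.1 CPM in CD5hi libraries. These overlapped as well. For Gbp4 the log2 change was -0.20 ± 0.14 (SE) and for Gbp7 -0.17 ± 0.08 (SE) (adjusted p = 0.422 and 0.219).

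Without the replicate block, none of the 30 antiviral, sensor and signalling genes was called in CD8 cells and none had an unadjusted p below 0.05. Log2 changes ran from -0.37 (Oas2) to 0.30 (Rsad2), 17 positive and 13 negative. Ddx58 had the smallest adjusted p (0.272), with a log2 change of -0.15 ± 0.08 (SE). Oas2, an oligoadenylate synthetase that activates RNase L, was at 113, 88.5, 153 and 86.5 CPM in CD5lo and 61.1, 61.1, 150.2 and 68.2 CPM in CD5hi libraries. Replicate 3 of CD5hi was at the level of the CD5lo libraries while the other 3 were below all of them, and without it Oas2 was called lower (adjusted p = 0.0239, against 0.451 with it). With the replicate block and all libraries, Oas2 and Zbp1 were called lower.

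Leaving out the 3 libraries gave 3 members lower (Igtp, Irgm2 and Slfn2; 4.04% of all genes tested) and 0 higher (7.01%) in CD8 CD5hi cells. The median of all members then moved from -0.05 to 0.13 and that of the 30 antiviral, sensor and signalling genes from 0.05 to 0.28. This setting takes a library numbered 3 out of CD8 CD5lo and a library numbered 4 out of CD8 CD5hi, and libraries of these 2 numbers differed in the 30 genes in every group (values are given with the replicate pattern). Activated or memory markers summed to 234 to 303 CPM in CD8 CD5lo and 394 to 506 CPM in CD8 CD5hi libraries, regulatory T cell markers to 81.9 to 121 and 134 to 146 CPM, and proliferation markers to 79.2 to 113 and 151 to 383 CPM, with their part in the result not tested.

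**Figure D2:**
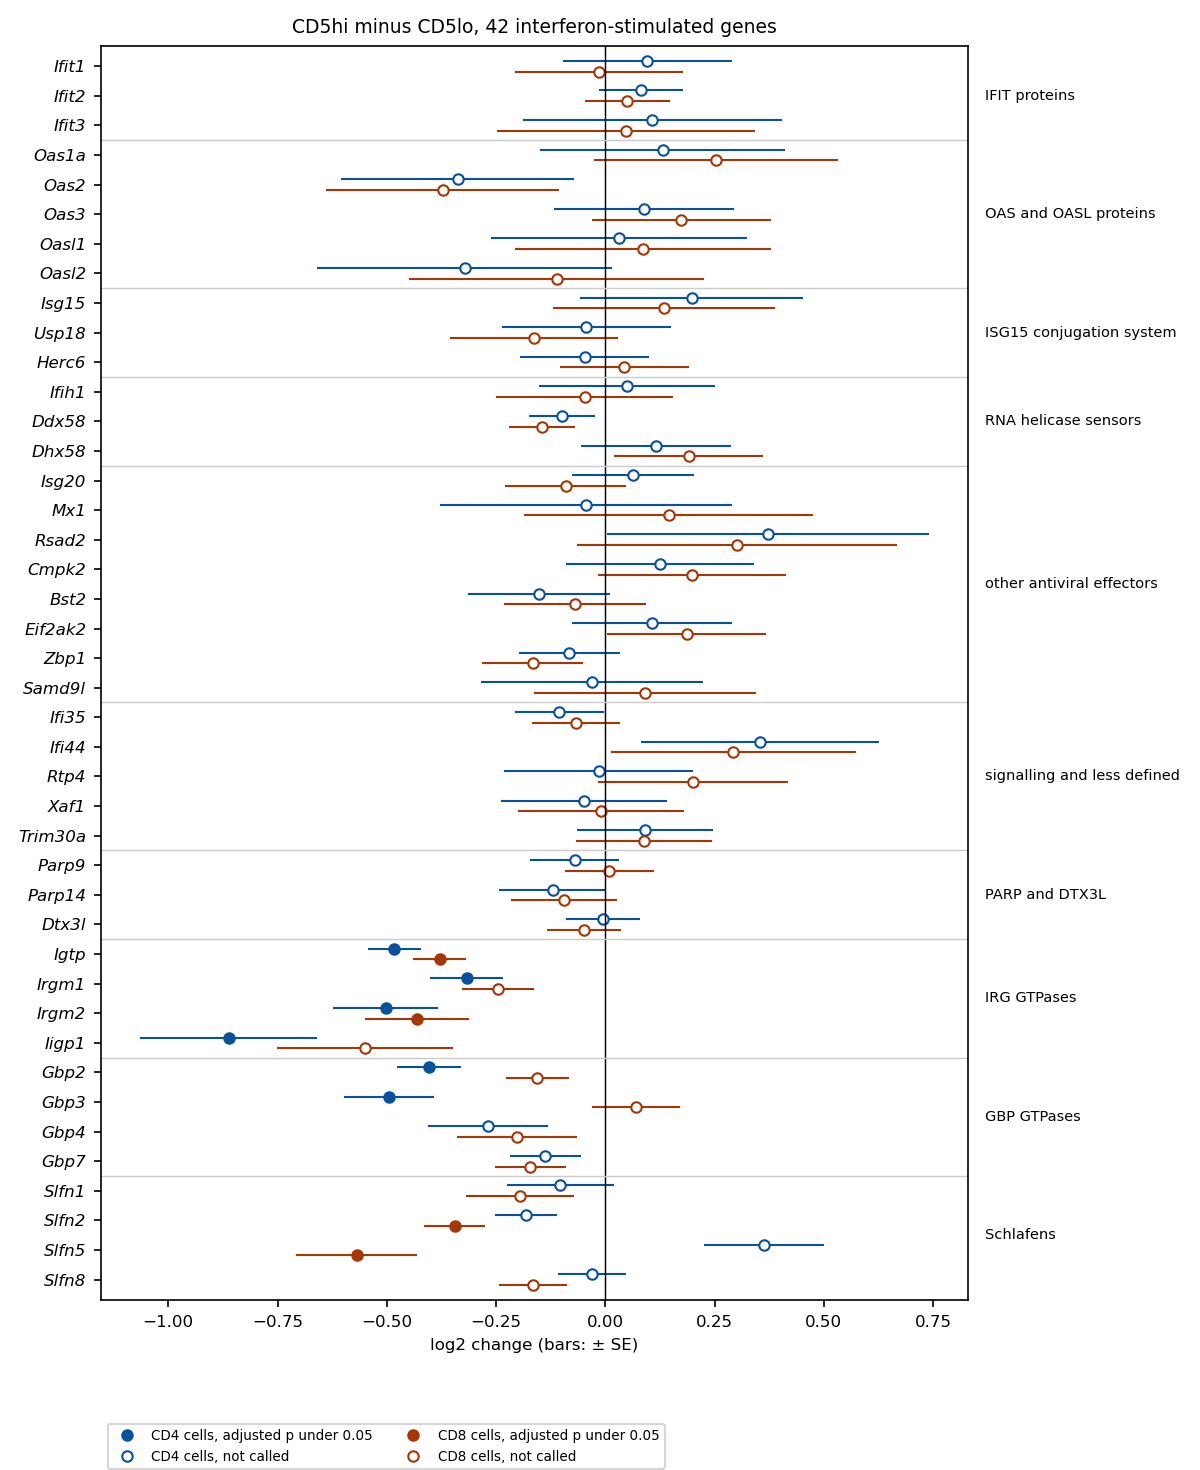
Log2 change (x axis) between CD5hi and CD5lo cells of the 42 interferon-stimulated genes (y axis, grouped by family), CD4 in blue and CD8 in red; bars are ± 1 SE and filled points passed the test. Filled points are all left of 0 and lie in the IRG, GBP and Schlafen families, while the 30 other genes scatter on both sides of 0.

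The difference between the CD5 effects of the lineages was tested directly. None of the 42 members passed (edgeR quasi-likelihood test with no replicate block; 3 had an unadjusted p below 0.05), and 0.177% of all tested genes were called higher and 0.133% lower. Without the 3 libraries again 0 members were called, against 0.626% higher and 0.324% lower of all genes. The 3 members with an unadjusted p below 0.05 were Slfn5, Gbp3 and Gbp2. For Slfn5 the change in CD8 minus that in CD4 cells was -0.93 ± 0.20 (SE) on the log2 scale (adjusted p = 0.0549), for Gbp3 it was 0.56 ± 0.14 (SE) (adjusted p = 0.130) and for Gbp2 0.25 ± 0.10 (SE) (adjusted p = 0.543). The difference in Slfn5 passed without CD8 CD5hi replicate 3 or 4 (adjusted p down to 0.0222) and that in Slfn5 and Gbp3 passed with DESeq2 (adjusted p = 0.00148 and 0.0137). For Igtp the difference was 0.10 ± 0.08 (SE) and for Irgm2 0.07 ± 0.17 (SE).

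Counting both directions together, more members were called between the lineages than by CD5, and these calls went both ways. At low CD5, 5 of 42 members were higher in CD8 than in CD4 cells (Oas3, Mx1, Gbp2, Gbp3, Gbp7) and 5 were lower (Ifit2, Ifi44, Iigp1, Slfn1, Slfn2), where 10.0% and 9.44% of all tested genes were. At high CD5, 5 were higher (Oas3, Mx1, Gbp2, Gbp3, Gbp7) and 5 lower (Ifit2, Ifi44, Slfn1, Slfn2, Slfn5), where 15.6% and 14.8% of all tested genes were. The members' share of calls was thus near that over all genes at low CD5 and below it at high CD5, and is no result about the set as a whole. The lists at low and high CD5 share 9 genes and differ in Iigp1 and Slfn5.

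Gbp3 had the smallest adjusted p of the members. The CPM values given above place all 8 CD8 libraries (19.7 to 25.4) above all 8 CD4 libraries (6.31 to 11.1). Gbp3 was 2.02-fold higher in CD8 cells at low CD5 (log2 difference 1.01 ± 0.10 (SE), adjusted p = 1.73e-06) and 2.99-fold higher at high CD5 (1.58 ± 0.10 (SE), adjusted p = 1.14e-08). Gbp2, from the same cluster, was 1.36-fold and 1.62-fold higher (adjusted p = 2.72e-04 and 2.25e-06), without overlap of the groups in either comparison. Gbp7 differed by 0.26 ± 0.08 (SE) and 0.23 ± 0.08 (SE) (adjusted p = 0.0304 and 0.0432), calls that were lost without the 3 libraries at low CD5 (adjusted p = 0.110) and each without 5 single libraries. At low CD5 these were CD4 CD5lo replicates 1 and 3 and CD8 CD5lo replicates 1, 2 and 4 (adjusted p up to 0.102). At high CD5 they were CD4 CD5hi replicates 3 and 4, CD8 CD5lo replicate 3 and CD8 CD5hi replicates 1 and 3 (adjusted p up to 0.126).

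Oas3, an oligoadenylate synthetase at chr5:120753098-120777661, minus strand, was at 50.7, 43.8, 68.4 and 38.4 CPM in CD4 CD5lo and 95.8, 101, 130.2 and 84.7 CPM in CD8 CD5lo libraries. At high CD5 it was at 47.7, 53.9, 68.7 and 43.7 CPM in CD4 and 103, 113, 159.8 and 88.7 CPM in CD8 libraries. The lineages did not overlap at either level, and in each group the library numbered 3 was the highest. Oas3 was 2.04-fold higher in CD8 cells at low CD5 (adjusted p = 0.00172) and 2.17-fold at high CD5 (adjusted p = 6.38e-04). Oas2, of the same family, was not called (log2 difference -0.32 ± 0.27 (SE) and -0.36 ± 0.27 (SE)).

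Mx1, at chr16:97447035-97462907, minus strand, encodes a dynamin-like antiviral GTPase, and C57BL/6 mice are known to carry a defective allele of it. Its CD4 values were 20.4, 22.7, 27.5 and 10.5 CPM at low and 21.8, 18.3, 27.4 and 11.3 CPM at high CD5. Its CD8 values were 57.2, 49.5, 73.2 and 32.2 CPM and 64.0, 51.4, 85.1 and 33.9 CPM. Every CD8 library was above every CD4 library, although each group spanned more than 2-fold between its libraries numbered 3 and 4. The log2 difference was 1.39 ± 0.34 (SE) at low CD5 (adjusted p = 0.00744) and 1.57 ± 0.34 (SE) at high CD5 (adjusted p = 0.00213).

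Ifit2, at chr19:34550694-34576419, plus strand, encodes a protein of the IFIT family, which binds viral RNA and restrains translation. It was at 70.1, 80.7, 66.6 and 82.7 CPM in CD4 CD5lo and 39.5, 40.5, 40.1 and 43.9 CPM in CD8 CD5lo libraries. At high CD5 it was at 79.5, 80.0, 75.0 and 83.0 CPM in CD4 and 51.1, 38.1, 43.2 and 37.5 CPM in CD8 libraries. The lineages did not overlap. Ifit2 was 1.83-fold lower in CD8 cells at low CD5 (log2 difference -0.87 ± 0.10 (SE), adjusted p = 5.05e-06) and 1.87-fold lower at high CD5 (-0.90 ± 0.10 (SE), adjusted p = 2.86e-06). Ifit3, of the same family and next to it on chromosome 19, had log2 differences of 0.30 ± 0.30 (SE) and 0.24 ± 0.30 (SE) (adjusted p = 0.594 and 0.598). In Ifit3, 51.2% of the 50-base windows occur identically in other genes, with Ifit3b sharing the most.

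Ifi44 was low throughout and lower still in CD8 cells, at 0.845, 0.445, 1.06 and 0.495 CPM in CD5lo and 0.669, 0.750, 1.34 and 0.711 CPM in CD5hi libraries against the CD4 values above. The log2 difference was -1.15 ± 0.28 (SE) at low CD5 (adjusted p = 0.00724) and -1.21 ± 0.28 (SE) at high CD5 (adjusted p = 0.00329). Iigp1 was lower in CD8 cells at low CD5 (-0.75 ± 0.20 (SE), adjusted p = 0.0136, or 0.0535 without CD8 CD5lo replicate 2) and had -0.44 ± 0.20 (SE) at high CD5 without a call (adjusted p = 0.114). Igtp was called in neither comparison (-0.01 ± 0.06 (SE) and 0.09 ± 0.06 (SE), adjusted p = 0.946 and 0.270).

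Of the Schlafens, Slfn1 and Slfn2 were lower in CD8 cells at both levels of CD5 and Slfn5 at high CD5. Slfn1, known for slowing the growth of thymocytes, was at 298, 322, 257 and 276 CPM in CD4 CD5lo and 228, 191, 207 and 203 CPM in CD8 CD5lo libraries. At high CD5 it was at 305, 245, 266 and 258 CPM in CD4 and 225, 149, 201 and 148 CPM in CD8 libraries. CD4 libraries were above CD8 libraries in both comparisons (log2 difference -0.48 ± 0.12 (SE) and -0.57 ± 0.12 (SE), adjusted p = 0.0112 and 0.00225). Slfn2 was 1.42-fold and 1.59-fold lower in CD8 cells (adjusted p = 5.92e-05 and 2.49e-06). Slfn5 was 2.21-fold lower at high CD5 (log2 difference -1.14 ± 0.14 (SE), adjusted p = 1.11e-05) and was not called at low CD5 (-0.21 ± 0.14 (SE), adjusted p = 0.358). Slfn8 was not called in either (log2 difference 0.19 and 0.06), and 15.4% of its 50-base windows occur in another gene.

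The remaining members were closer between lineages. Isg15 had log2 differences of 0.01 ± 0.25 (SE) and -0.05 ± 0.25 (SE), Usp18 of 0.00 ± 0.19 (SE) and -0.12 ± 0.19 (SE), Bst2 of 0.15 ± 0.16 (SE) and 0.23 ± 0.16 (SE) and Ddx58 of -0.02 ± 0.08 (SE) and -0.07 ± 0.08 (SE), at low and high CD5, none with a call. Parp9, which acts with Dtx3l in interferon signalling, was at 98.7, 112, 99.8 and 88.6 CPM in CD4 and 113, 115, 127 and 101 CPM in CD8 cells at low CD5, and 98.4, 101, 97.6 and 82.9 against 121, 109, 132 and 96.4 at high CD5. The lineages overlapped at both levels of CD5. Parp9 had log2 differences of 0.19 ± 0.10 (SE) and 0.27 ± 0.10 (SE) (adjusted p = 0.235 and 0.0548), and 9.40% of its exonic bases are also annotated to Dtx3l on the opposite strand.

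Without the 3 libraries, 4 members were higher (8.32% of all genes) and 5 lower (7.04%) at low CD5, and 10 were higher (16.4%) and 5 lower (13.9%) at high CD5. The 5 added at high CD5 were Herc6, Eif2ak2 (the RNA-activated kinase PKR), Samd9l, Trim30a and Parp9, with adjusted p from 0.0126 to 0.0421. With the replicate number as a block, which pairs libraries of the same number, more was called. At low CD5 12 were higher (15.7% of all genes) and 7 lower (16.3%), the additions being Ifit3, Oasl1, Eif2ak2, Samd9l, Trim30a, Parp9 and Dtx3l on the higher side and Ifih1 and Zbp1 on the lower. At high CD5 15 were higher (23.4% of all genes) and 10 lower (23.3%).

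**Figure D3:**
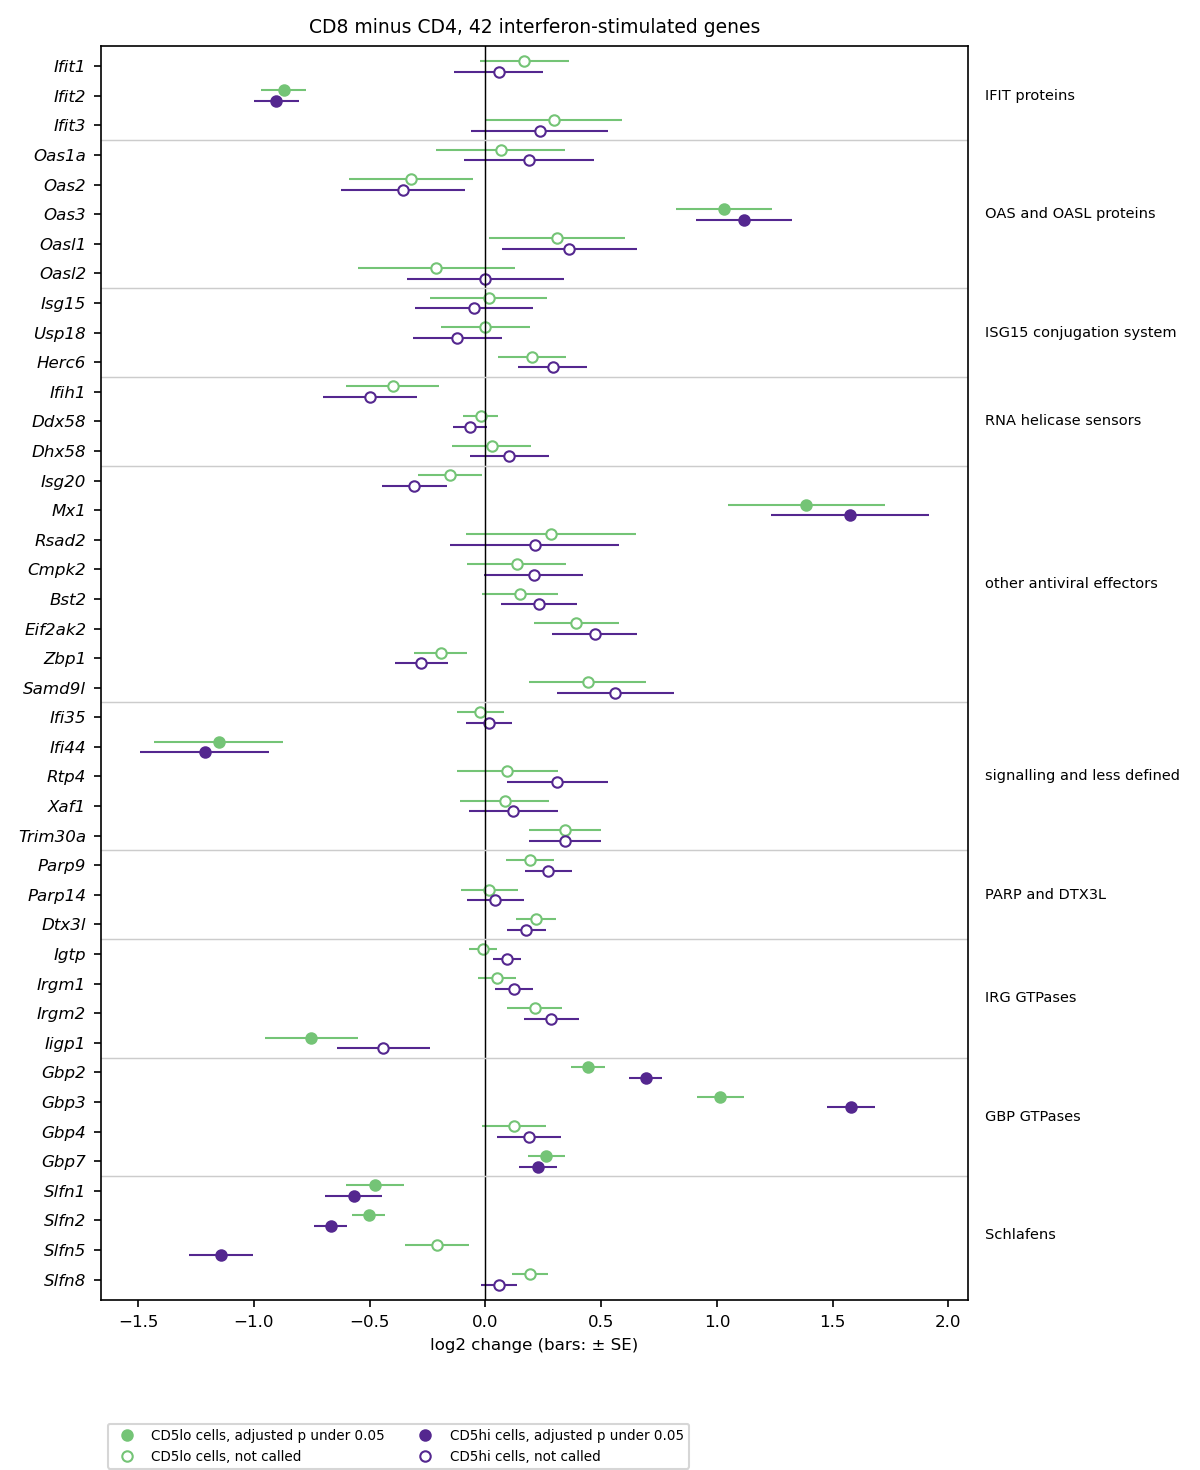
Log2 difference (x axis) between CD8 and CD4 cells of the 42 genes (y axis, grouped by family), at low CD5 in green and at high CD5 in purple; bars are ± 1 SE and filled points passed the test. Gbp3, Mx1 and Oas3 are the filled points beyond 1 on the right at both levels of CD5, and Ifi44 and Ifit2 lie on the left at both.

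Many of the antiviral members varied between replicates in a way that ran across all 4 groups. Ifit3 was at 35.4, 46.1, 56.0 and 27.5 CPM in the CD4 CD5lo and 38.4, 44.9, 60.7 and 33.8 CPM in the CD4 CD5hi libraries, in the order of replicates 1 to 4. In CD8 cells it was at 42.2, 46.7, 75.6 and 37.9 CPM in CD5lo and 42.7, 44.3, 86.8 and 35.2 CPM in CD5hi libraries. In each group the library numbered 3 was the highest and the library numbered 4 the lowest. Isg15 showed the same, with 21.2, 15.3, 25.5 and 13.9 CPM at low and 25.4, 16.7, 26.7 and 18.3 at high CD5 in CD4 cells, and 17.7, 18.6, 24.9 and 15.5 against 18.4, 18.9, 32.9 and 13.9 in CD8 cells, except that the lowest CD4 CD5hi library was replicate 2.

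Oas2 was at 157, 119.8, 158 and 117 CPM at low and 111, 99.1, 137 and 88.8 CPM at high CD5 in CD4 cells, and its CD8 values are given above. Replicate 3 was again the highest of each group. Bst2 was at 66.2, 42.8, 59.3 and 44.2 CPM at low and 54.3, 37.8, 53.8 and 45.4 at high CD5 in CD4 cells, and 59.5, 52.2, 67.8 and 56.2 against 49.9, 50.8, 72.8 and 51.1 in CD8 cells. Its highest library was replicate 1 in both CD4 groups and replicate 3 in both CD8 groups. Ddx58 varied less, at 211, 215, 200.2 and 198 CPM at low and 191, 204, 198 and 177 at high CD5 in CD4 cells, and 197, 206, 219 and 192 against 169, 179, 214 and 174 in CD8 cells. Its lowest library was replicate 4 in 3 of the 4 groups.

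The library numbered 3 was the highest of its group in all 4 groups for 13 members: Ifit3, Oas1a, Oas2, Oas3, Oasl1, Oasl2, Isg15, Dhx58, Mx1, Rsad2, Cmpk2, Zbp1 and Ifi44. The library numbered 4 was the lowest in all 4 groups for 18 members. All of these were among the 30 antiviral, sensor and signalling genes, and none among the 8 GTPases or the 4 Schlafens. How many of all tested genes show either pattern was not counted. Other genes of the 30 differed: in both CD4 groups Ifit2 was lowest in replicate 3 and highest in replicate 4. Samd9l was lowest in replicate 3 of CD4 CD5lo cells. Ifi35 was the one member highest in replicate 1 in all groups, with 97.8, 82.2, 84.6 and 73.1 CPM at low and 88.9, 68.5, 79.1 and 77.5 at high CD5 in CD4 cells, and 93.0, 75.3, 81.7 and 82.4 against 90.3, 73.0, 78.6 and 75.6 in CD8 cells. On the log2(CPM + 0.5) scale, the mean deviation of the 30 genes from their group mean in replicate 3 was 0.17 and 0.18 at low and high CD5 in CD4 cells, and 0.31 and 0.46 in CD8 cells. In the same order, for replicate 4 it was -0.27, -0.23, -0.27 and -0.35.

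The 5 OAS and OASL genes deviated most among families in replicate 3 of CD8 CD5hi cells, by 0.78 on average. The median coefficient of variation within a group was 31.6% for the OAS and OASL genes and 20.0% for the 30 genes together, against 9.47% for the IRG genes, 8.11% for the GBP genes and 9.50% for the Schlafens. Igtp had the lowest of all members (4.91%) and Oasl2 the highest (38.9%). The labels do not say what a replicate number stands for.

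**Figure D4:**
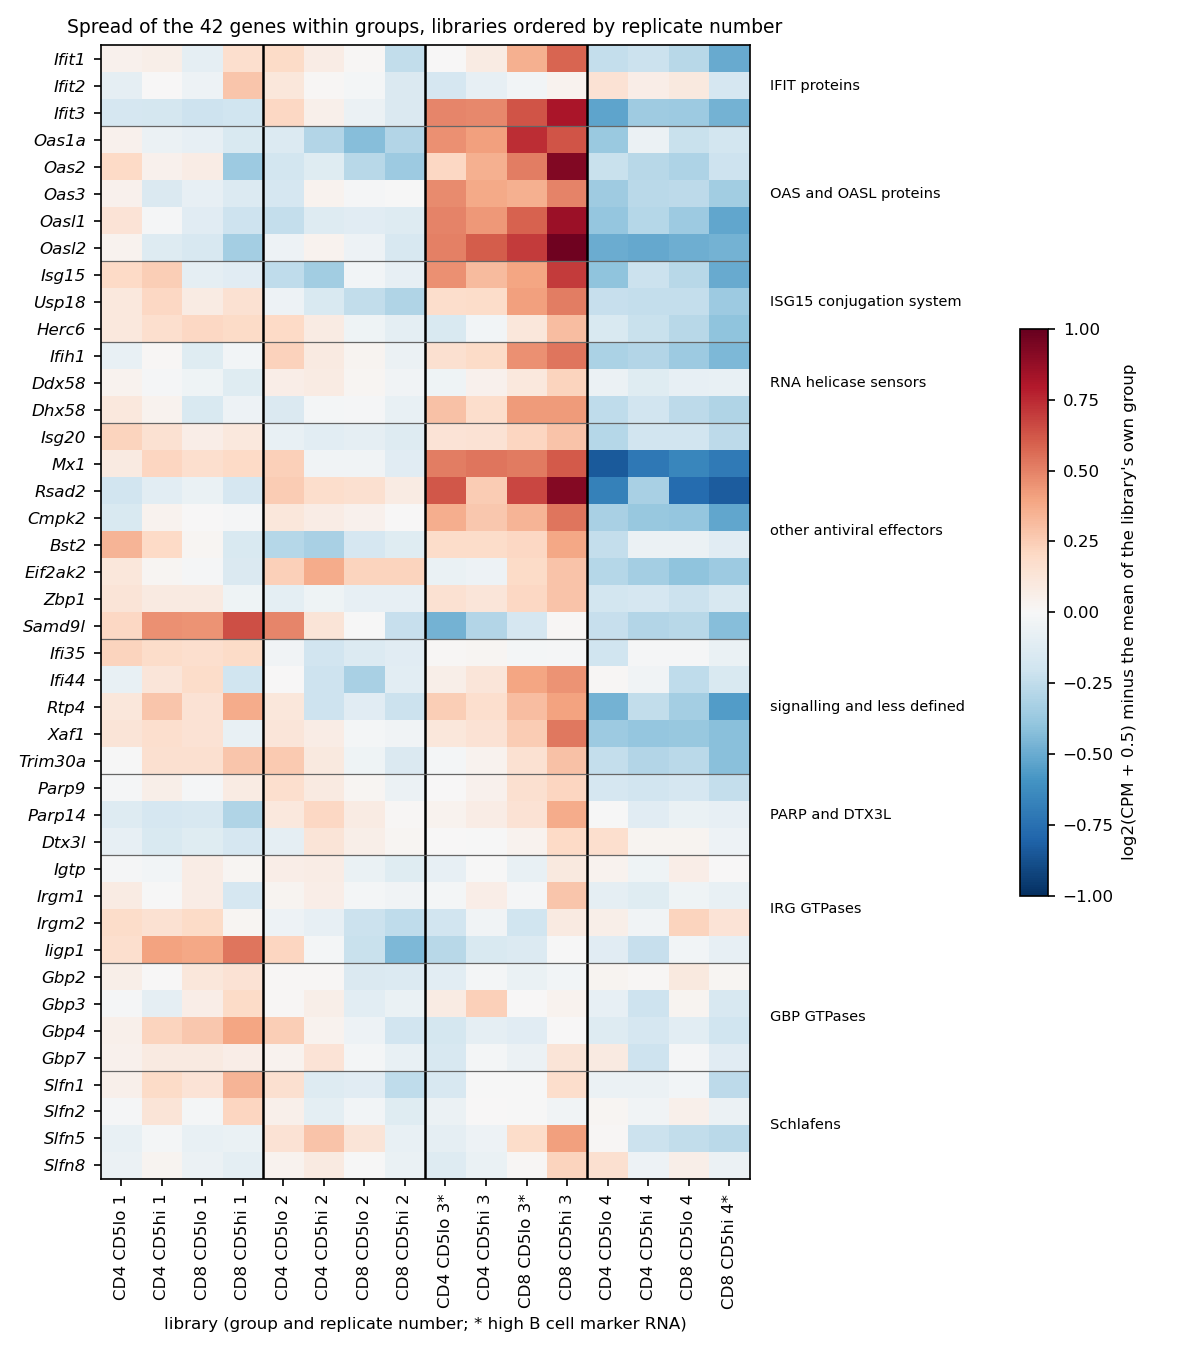
Deviation of each interferon-stimulated gene (rows, by family) from its group mean on the log2(CPM + 0.5) scale (colour), with the 16 libraries (columns) ordered by replicate number; an asterisk marks the 3 libraries with raised B cell markers. On average over the antiviral, sensor and signalling rows, libraries numbered 3 are high and those numbered 4 low in all 4 groups. Some of these rows differ, such as Ifit2 in both CD4 groups. The IRG, GBP and Schlafen rows show less of the pattern.

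Libraries numbered 3 were high both with and without raised B cell markers. Replicate 3 of CD4 CD5hi and of CD8 CD5hi had B cell marker sums of 39.9 and 34.9 CPM, within the range of the other libraries, and deviated by 0.18 and 0.46. CD8 CD5hi replicate 4, with the highest sum (999.8 CPM), deviated by -0.35. The part of other cells' RNA in the pattern was not tested. Myeloid and dendritic cell markers (14 of 14 in the table) summed to 60.4 to 85.5 CPM in the 3 libraries with raised B cell markers and 45.8 to 55.9 CPM in the other 13. Natural killer cell markers (7 of 7) summed to 0.46 to 7.66 CPM over all libraries, with 1 to 5 of them at 0 in each.

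**Figure D5:**
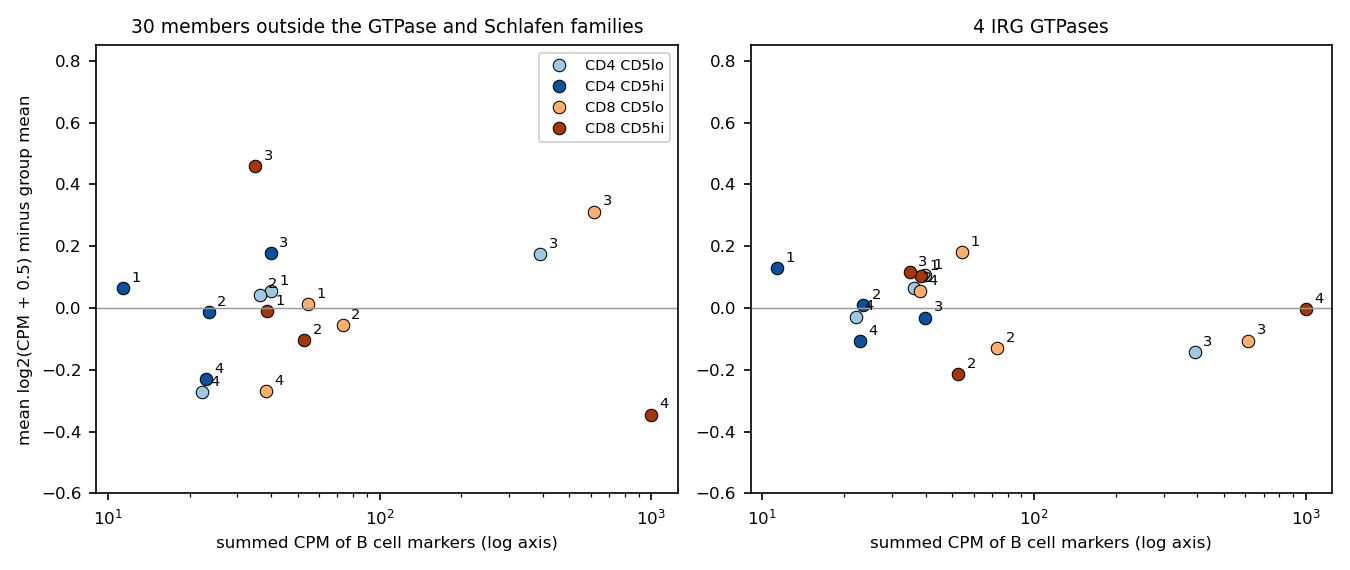
Sum of B cell marker CPM (x axis, log scale) against the mean log2(CPM + 0.5) deviation from the group mean (y axis) of the 30 antiviral, sensor and signalling genes and of the 4 IRG genes, 1 point per library labelled by replicate number. The 3 libraries at 391 CPM and above lie on both sides of 0, and the points numbered 3 lie above 0 for the 30 genes at low and at high marker sums.

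Of 37 listed interferon pathway genes (receptors, kinases, transcription factors, inhibitors, interferons and sensors) 30 were tested. In CD5hi CD4 cells 1 was higher and 2 were lower, where 2.68% and 1.40% of all genes were. Without the 3 libraries 0 were higher and 1 lower there (2.70% and 1.23% of all genes). In CD5hi CD8 cells 2 were higher and 3 lower, where 5.95% and 3.51% of all genes were. Without the 3 libraries 4 were higher and 2 lower there (7.01% and 4.04% of all genes). The median log2 change of the 30 was -0.01 in CD4 and -0.07 in CD8 cells. The transcription factor Irf1 fell in CD4 cells (log2 change -0.35 ± 0.08 (SE), adjusted p = 0.0156), a call lost without the 3 libraries (adjusted p = 0.0870) and without CD4 CD5lo replicate 2 or 3 or CD4 CD5hi replicate 1 or 4 (up to 0.0669), and had -0.24 ± 0.08 (SE) in CD8 cells (adjusted p = 0.0650). Irf9 fell in CD8 cells (-0.29 ± 0.08 (SE), adjusted p = 0.0272), also lost without the 3 libraries (adjusted p = 0.115) and without any CD8 CD5lo library or CD8 CD5hi replicate 1 or 2 (up to 0.0779). The inhibitor Socs3 fell in both (-0.87 ± 0.14 (SE) and -1.33 ± 0.15 (SE), adjusted p = 0.00153 and 4.51e-05), while Socs1 (-0.01 ± 0.13 (SE) and -0.43 ± 0.13 (SE)), Stat2 (-0.04 ± 0.09 (SE) and -0.24 ± 0.09 (SE)) and Irf7 (-0.08 ± 0.24 (SE) and -0.13 ± 0.24 (SE)) were not called. Of the other called genes, named after their values were seen, the phosphatase gene Ptpn6 rose in both lineages (0.49 ± 0.12 (SE) and 0.53 ± 0.12 (SE), adjusted p = 0.0299 and 0.0115). Its call in CD4 cells was lost without the 3 libraries (adjusted p = 0.107) and without CD4 CD5lo replicate 2, 3 or 4 or CD4 CD5hi replicate 1 or 4 (up to 0.113). In CD8 cells Mb21d1, which encodes the DNA sensor cGAS, rose (0.48 ± 0.13 (SE), adjusted p = 0.0301), a call lost without CD8 CD5lo replicate 1, 2 or 4 or CD8 CD5hi replicate 1, 2 or 3 (up to 0.0880). The inhibitor Pias1 fell there (-0.26 ± 0.06 (SE), adjusted p = 0.0142), a call lost without CD8 CD5lo replicate 4 or CD8 CD5hi replicate 2 (up to 0.0588). None of the pathway genes passed for the difference of the CD5 effects by the edgeR test without the replicate block (with it, Ifngr1 was higher and Ifngr2 lower).

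None of the 4 receptor genes Ifnar1, Ifnar2, Ifngr1 and Ifngr2 was called by CD5 without the replicate block. With it, Ifngr1 passed in CD4 cells, where same-numbered libraries pair (log2 change -0.23, adjusted p = 0.0404, against 0.890 without it). Between lineages Ifnar2, a subunit of the type I receptor, was higher in CD8 cells at both levels (0.56 ± 0.06 (SE) and 0.36 ± 0.06 (SE), adjusted p = 2.40e-06 and 1.72e-04), and Ifnar1 was called in neither. For the interferon gamma receptor, Ifngr1 was higher (0.86 ± 0.26 (SE), adjusted p = 0.0178) and Ifngr2 lower (-1.22 ± 0.24 (SE), adjusted p = 0.00105) in CD8 cells at high CD5. The call of Ifngr1 was lost without CD4 CD5hi replicate 1 or 4 or CD8 CD5hi replicate 3 (adjusted p up to 0.0693). At low CD5 both passed with the replicate block alone (adjusted p = 0.00465 and 2.75e-04, against 0.580 and 0.150 without it). Ifng itself, which encodes interferon gamma, was at 0.124 ± 0.164 (SD, n = 4) CPM at low and 0.0246 ± 0.0194 at high CD5 in CD4 cells, and 1.87 ± 0.686 against 3.84 ± 0.819 in CD8 cells. It was called higher in CD8 cells at both levels (adjusted p = 4.77e-04 and 6.10e-06) and in neither lineage by CD5. In the pathway list 4 genes were higher and 1 lower in CD8 cells at low CD5 (10.0% and 9.44% of all genes), and 6 higher and 6 lower at high CD5 (15.6% and 14.8%). Without the 3 libraries these counts were 3 and 1 at low CD5 (8.32% and 7.04% of all genes). At high CD5 they were then 7 and 7 (16.4% and 13.9%).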

How the data were processed

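The authors deposited 1 table of gene counts with a column for each of the 16 samples (all matched to the labels), used here without further change. Per the submitters' processing notes, STAR 2.5.2a, featureCounts 1.4.6-p3, DESeq2 and the build mm10 were named. Libraries were made with one of 2 TruSeq kits, per the labels' protocols. The kit of a given sample and whether counting used strand: not given in the sources used here. No 2 libraries of a group were alike within sampling noise (chi-square per degree of freedom at least 30.6).

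The counts went into the quasi-likelihood F test of edgeR 4.0.16 (R 4.3.3), after TMM scaling and filterByExpr (minimum count 10, minimum sum 15), with the 4 groups of all 16 samples in one fit and 12 residual degrees of freedom. P-values are two-sided and adjusted over 13554 genes in each of 5 comparisons, with a threshold of 0.05. The SE is the log2 change over the square root of F. The fits were tested on simulated data.

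Same-numbered libraries deviated together between CD5lo and CD5hi CD4 cells (r from 0.25 to 0.53) and between lineages (0.20 to 0.70 at low, 0.23 to 0.54 at high CD5), but over all genes not in every CD8 pair (down to -0.04), although over the 42 members r was 0.64 to 0.93 there. This comes from the data, not from the labels.

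The members, families, lists and the 3 libraries left out together were chosen with earlier results of these data known. Named are all called members, with values by library for those of smallest adjusted p and the most abundant of each family, and, of other genes, fixed receptors and factors plus up to 4 per comparison by smallest adjusted p. An item of the pathway list is not reported here. Alternatives were RLE size factors, DESeq2 1.42.0, limma 3.58.1 voom, no filter, halved counts, the replicate block, and leaving out libraries.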

Additional observations from a re-analysis of the deposited data

Results flagged for a closer look

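Of 84 groups of 4 libraries examined, over the members printed by library, 4 held a library far from the other 3, by Dixon's gap over the range; chance gives about 1 in 20. In CD8 CD5hi replicate 3, Slfn8 was at 149.4 CPM against 119.9 to 123 CPM in the other 3, Oas2 was at 150.2 CPM against 61.1 to 68.2, and Bst2 was at 72.8 CPM against 49.9 to 51.1. This library was not among the 3 with raised B cell markers (sum 34.9 CPM). In CD8 CD5lo replicate 1, Gbp4 was at 441 CPM against 338 to 355 CPM in the others.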

How the results depend on the processing

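Of 30 calls of a member in a comparison, none reversed and 22 held under all 24 alternatives; 8 were lost without at least 1 single library. All 30 held with RLE size factors, DESeq2, limma voom, halved counts and the replicate block, 29 with no low-count filter (Gbp7 at high CD5 was lost), 27 without the 3 libraries and 29 with the block and without the 3 libraries. Members lower in CD5hi CD8 cells numbered 9 with the replicate block (11.6% of all genes; Oas2, Zbp1, Irgm1, Iigp1 and Gbp2 added) and 7 with the block and without the 3 libraries (1221 of 13570 genes), against 4 (3.51%). There r of same-numbered libraries was 0.56, 0.25, 0.03 and -0.04 over all genes for numbers 1 to 4. Over the 42 members it was 0.64, 0.69, 0.93 and 0.91, each highest with its own number. The CD8 pairs numbered 3 and 4 each hold a library with raised B cell markers. Over all genes these 2 libraries, CD8 CD5lo replicate 3 and CD8 CD5hi replicate 4, correlated with each other (r = 0.43). The r over all genes therefore cannot decide whether libraries numbered 3 and 4 pair. The difference of the CD5 effects had 1 member higher (Gbp3) and 1 lower (Slfn5) under DESeq2 (0.989% and 0.672% of all genes), the block (1.51% and 1.28%), and the block without the 3 libraries (2.25% and 1.45%), against 0. Between lineages at low CD5 the block gave 12 higher against 5 (15.7% of all genes against 10.0%), and the block without the 3 libraries 8 lower against 5 (12.4% against 9.44%). At high CD5, 15 were higher with the block (23.4%), 15 with the block and without the 3 libraries (23.1%) and 10 without the 3 libraries (16.4%), against 5 (15.6%), and 10 were lower with the block (23.3%) and 10 with the block and without the 3 libraries (20.1%), against 5 (14.8%). The cause of these moves was not tested. Leaving out single libraries gave 3 to 6 lower members in CD4 cells (3 without CD4 CD5lo replicate 1 or CD4 CD5hi replicate 2, 3 or 4). In CD8 cells it gave 2 to 5 lower (2 without CD8 CD5hi replicate 2), with 0 higher in both lineages. Of all genes, 0.895% to 1.65% were lower and 1.89% to 2.97% higher in CD4 cells in these fits. In CD8 cells 1.66% to 5.10% were lower and 3.73% to 6.95% higher. For the difference, leaving out single libraries gave 0 higher and 0 to 1 lower (1 without CD8 CD5hi replicate 3 or 4). There 0.00728% to 0.783% of all genes were higher and 0.0510% to 0.425% lower. Between lineages it gave 4 to 7 higher and 4 to 5 lower at low CD5 (all genes: 8.25% to 10.9% and 7.13% to 10.4%). At high CD5 it gave 4 to 9 higher (9 without CD8 CD5hi replicate 4) and 5 to 8 lower (8 without CD8 CD5hi replicate 3). Of all genes, 13.5% to 16.3% were higher and 11.4% to 15.0% lower at high CD5. In CD8 cells without the 3 libraries, 4 medians of log2 change moved: all members to 0.13, IFIT to 0.29, OAS and OASL to 0.43 and helicases to 0.28. With the block and without the 3 libraries the median of all members was -0.03. Depth limited mainly Ifi44 and Ifng, the least abundant genes given.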

Other observations

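Interferon-stimulated genes outside the 42 were counted from a second list of 64, of which 58 were tested. By CD5, 2 were higher and 4 lower in CD5hi CD4 cells, where 2.68% and 1.40% of all genes were. In CD5hi CD8 cells 2 were higher and 4 lower, where 5.95% and 3.51% were. The median log2 changes were -0.04 and -0.04. Without the 3 libraries with raised B cell markers, 3 were higher and 3 lower in CD4 cells (2.70% and 1.23% of all genes). In CD8 cells 4 were then higher and 4 lower (7.01% and 4.04%). Unlike the 42 members, this list held genes that rose: Apol9b (2.40 ± 0.24 (SE) in CD4 and 1.83 ± 0.25 (SE) in CD8 cells, adjusted p = 1.45e-05 and 2.32e-04 by edgeR) and Apol9a (1.38 ± 0.26 (SE) and 1.25 ± 0.28 (SE), adjusted p = 0.00465 and 0.0106), 2 apolipoprotein L genes. Gbp11, a further guanylate-binding protein, fell in both (-1.25 ± 0.19 (SE) and -1.12 ± 0.19 (SE), adjusted p = 6.35e-04 and 0.00145). It is the gene that shares the most 50-base windows with the member Gbp4, so the counts of Gbp11 are less certain. None of the 58 passed for the difference of the CD5 effects.

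Between the lineages 12 of the 58 were higher and 6 lower in CD8 cells at low CD5 (10.0% and 9.44% of all genes), and 12 higher and 8 lower at high CD5 (15.6% and 14.8%). Without the 3 libraries these counts were 12 and 5 at low CD5 (8.32% and 7.04% of all genes). At high CD5 they were then 14 and 7 (16.4% and 13.9%). Among the genes with the smallest adjusted p of both lists, Nlrc5, the transactivator of MHC class I genes, was higher in CD8 cells (0.48 ± 0.05 (SE) and 0.59 ± 0.05 (SE), adjusted p = 3.93e-06 and 3.09e-07). Il10rb, a shared receptor subunit for IL-10 and interferon lambda, had 0.87 ± 0.09 (SE) and 0.76 ± 0.09 (SE) (adjusted p = 3.21e-06 and 1.00e-05). Lgals3bp had 0.62 ± 0.08 (SE) and 0.76 ± 0.08 (SE) (adjusted p = 2.39e-05 and 2.29e-06), and Apol9a -2.47 ± 0.29 (SE) and -2.60 ± 0.28 (SE) (adjusted p = 8.17e-06 and 2.49e-06).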
